A study of Mus musculus with 12 samples.

Results

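DNA is copied in S phase by a conserved set of proteins, and 36 of their genes are described here in mouse brain cells. The genes were chosen by symbol, and each symbol matched 1 of the 55862 entries in the deposited expression table. They encode the proteins that license and open replication origins, prime and extend the new strands, hold and load the sliding clamp, join Okazaki fragments, assemble nucleosomes behind the fork and supply deoxynucleotides. All 36 were chosen with earlier results of these data known, so their joint direction is a description of these samples and not independent evidence.

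RNA of C57BL/6 mouse brain cells was sequenced in 4 groups of 3 libraries. AST are astrocytes at 0 day of incubation, labelled as the negative control. A-iSC are the cells after 5 days of incubation, which the design text ties to the induction of AST in 3D cell spheres. P56-NSC and P0-NSC are brain-derived cells labelled as positive controls, named NSC in the sample titles and NPC in the design text. P56 and P0 in the titles are what sets these groups apart, and such codes commonly stand for the postnatal day, although the labels do not spell them out. The age of the other cells, the passage, and whether libraries of 1 group stem from different animals or cultures, are not stated in the labels. The p-values therefore reflect library-to-library spread alone, and that spread may be technical. No group carries a genetic change in the labels. Values are FPKM, fragments scaled to gene length and sequencing depth, so levels of different genes are compared per length. For the replication genes that length is the union of all annotated exons, which may exceed the length of the transcripts present. Ratios and rankings between genes therefore depend in part on the annotation, and the size of that part was not tested. A gene is called higher or lower when limma's moderated test on log2(FPKM + 1) gives a Benjamini-Hochberg adjusted p under 0.05 over the 15747 genes tested. Differences and their standard errors (SE) are on that log2 scale, which understates the change of genes with low levels. Genes said to move most or least are ranked on that scale, and the ratio of means can rank them otherwise. Means are given with the SD of 3 libraries. Libraries of 2 groups are called apart when they do not overlap. How many of all tested genes are apart was not counted, so this is a description and no added support.

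Origins are licensed in G1, when ORC, CDC6 and CDT1 load the MCM2-7 ring onto DNA. In S phase CDC45 and the GINS complex turn that ring into the active helicase. Cells that leave the cycle lower many of these transcripts, and E2F factors, held in check by the RB family of pocket proteins, are the textbook regulators of the group. In the brain, replication is known mainly from stem and progenitor cells, glial precursors and reactive or cultured glia, while most mature neural cells do not divide.

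Because E2F is the textbook regulator, the promoters of the genes were searched for its site. RefSeq promoter windows of GRCm38.p6, reaching from 250 bases before to 50 after a start site, were held for 29 of the 36 genes. The letters searched on both strands were TTTGGCGC, TTTCCCGC, TTTGCCGC and TTTCGCGC, and 2 of these can overlap when they face each other. At least 1 match lay in 12 of the 29 genes (41.4%), against 4.39% of 11034 other tested genes and 2.61% of all 27025 genes with a window. For the 6 genes with a match before the start site that differed most between A-iSC and AST, the 30 bases around the first match are shown to let the sites be compared. They are written 5′ to 3′ on the gene's strand, with matches in capitals. The start sites are those of RefSeq. By the gene coordinates of the deposited data, the stretches of Cdc6, Mcm7 and Rfc3 lie inside the gene, and that of Orc1 lies partly inside.
Mcm5, chr8:75109345-75109374, plus strand: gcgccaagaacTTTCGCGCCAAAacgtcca
Cdc6, chr11:98908002-98908031, plus strand: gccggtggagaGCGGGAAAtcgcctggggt
Mcm6, chr1:128359797-128359826, minus strand: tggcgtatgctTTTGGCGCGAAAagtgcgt
Mcm7, chr5:138172030-138172059, minus strand: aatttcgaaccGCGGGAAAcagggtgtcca
Orc1, chr4:108579416-108579445, plus strand: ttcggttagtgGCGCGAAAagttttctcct
Rfc3, chr5:151651200-151651229, minus strand: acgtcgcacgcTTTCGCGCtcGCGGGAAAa

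In Mcm5 and Mcm6 the first match overlapped a second one on the other strand, so that a run of 12 capitals reads as a site from either side. Mcm6 held a further match nearer its start site. The Mcm6 window upstream of the start is shown whole because it holds 3 matches, the most of these 6 genes.
Mcm6, chr1:128359706-128359955, minus strand: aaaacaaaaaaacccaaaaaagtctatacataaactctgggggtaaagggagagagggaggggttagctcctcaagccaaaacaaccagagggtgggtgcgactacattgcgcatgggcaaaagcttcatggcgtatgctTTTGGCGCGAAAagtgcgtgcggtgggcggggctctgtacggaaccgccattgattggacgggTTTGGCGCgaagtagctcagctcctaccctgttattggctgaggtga
Rrm2 had the largest differences from AST of the 36 genes and no match, so its upstream stretch outside annotated exons is shown beside it.
Rrm2, chr12:24708004-24708240, plus strand: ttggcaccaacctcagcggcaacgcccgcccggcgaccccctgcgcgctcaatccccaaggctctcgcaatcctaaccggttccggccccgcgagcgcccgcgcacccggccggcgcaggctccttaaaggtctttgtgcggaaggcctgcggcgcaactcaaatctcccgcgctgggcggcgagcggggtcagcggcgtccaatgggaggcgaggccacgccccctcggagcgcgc

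Other motifs stood closer to their background. A CCAAT box was found in 58.6% of the 29 genes and 42.7% of other tested genes, and the CHR motif (TTTGAA or TTCGAA), known from mitotic genes, in 17.2% and 15.8%. A match is only a description of the letters, and its absence says nothing of the factor. The genes with and without an E2F match moved by similar medians between A-iSC and AST, -0.95 for 12 genes and -1.07 for 17. With and without a match the medians were -1.46 and -1.27 in P56-NSC against AST, -0.26 and -0.54 in P0-NSC against AST, and -1.50 and -0.93 in P56-NSC against P0-NSC, so neither set was the further one throughout.

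Across the 4 groups the genes were highest in AST and lowest in P56-NSC. The summed level of the 36 genes was 515 ± 20.2 FPKM in AST, 302 ± 18.7 in P0-NSC, 194 ± 1.57 in A-iSC and 139 ± 1.98 in P56-NSC. The order AST, P0-NSC, A-iSC, P56-NSC held for the means of 24 of the 36 genes. AST had the highest mean of 30 genes and P0-NSC that of 6, while P56-NSC had the lowest of 31, A-iSC of 4 and P0-NSC of 1, which was Gins4. In these bulk samples fewer dividing cells and less RNA per cell cannot be told apart.

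**Figure D1:**
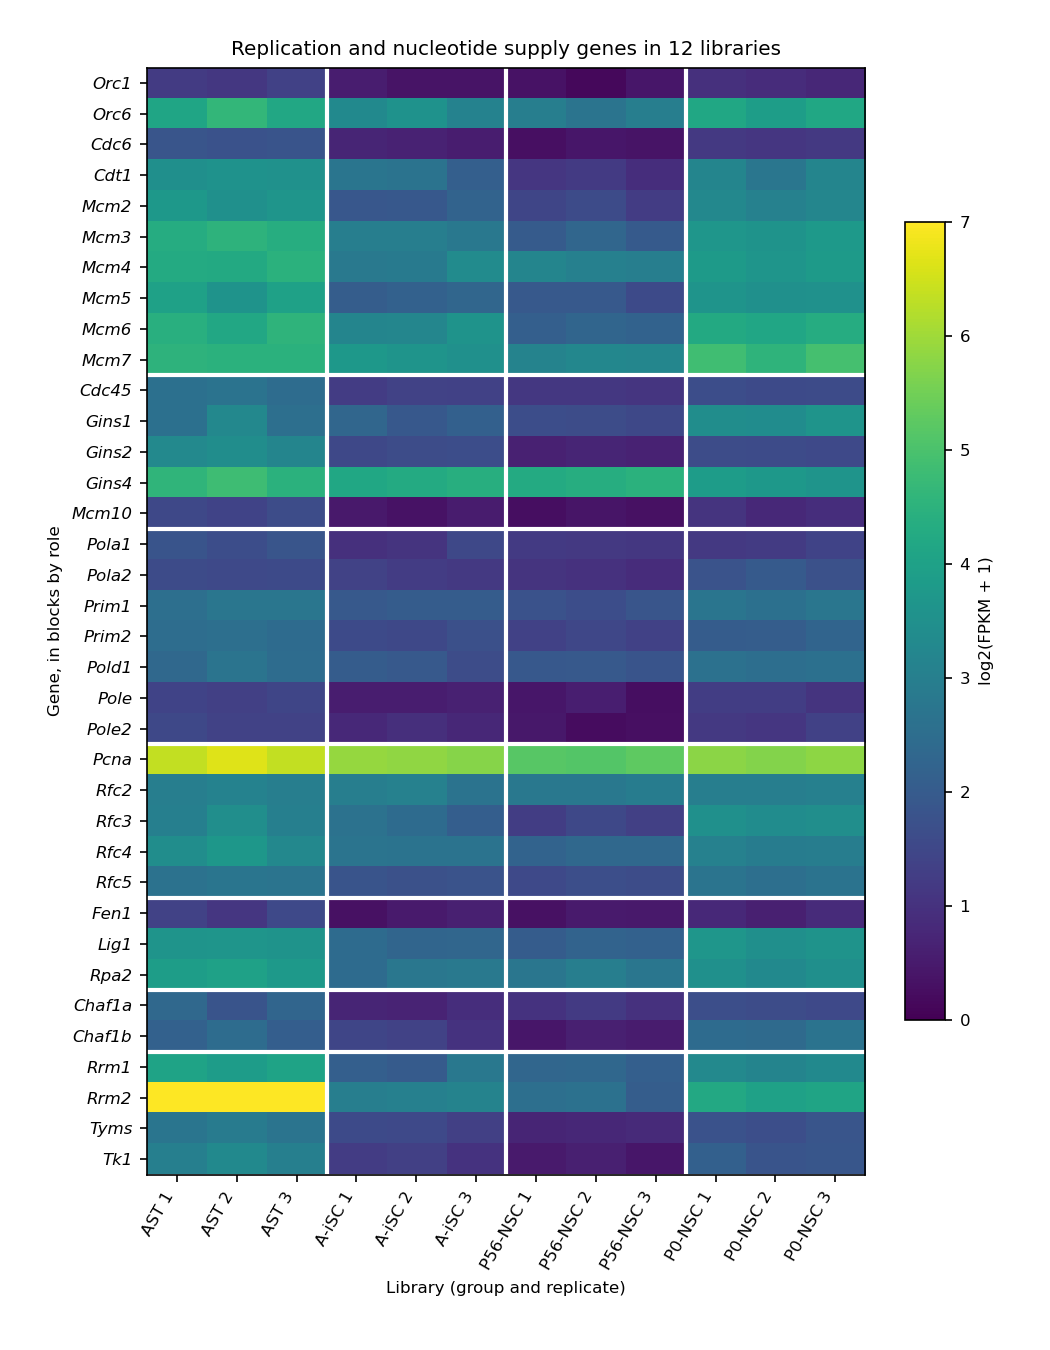
Levels as log2(FPKM + 1) (colour) of the 36 genes (rows, in blocks by role) in the 12 libraries (columns, 3 per group). Rrm2 and Pcna are the brightest rows in AST, and the P56-NSC columns are the darkest for most genes.

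The labels were set against marker lists, since the groups differed in much besides replication. Summed astrocyte markers (9 genes) were lowest in AST, at 159 to 180 FPKM, against 1249 to 2524 in A-iSC, 2869 to 3113 in P56-NSC and 256 to 319 in P0-NSC. Aldoc and Gfap have the highest means of that list. Against AST 8 of the 9 were called higher in A-iSC and 9 in P56-NSC, but in P0-NSC 4 were higher and 4 lower (Aldh1l1, Aqp4, Gja1 and S100b). Summed stem and progenitor markers (10 genes) reached 2616 to 3586 FPKM in AST, 1583 to 2116 in A-iSC, 904 to 987 in P0-NSC and 249 to 276 in P56-NSC. Vim and Fabp7 have the highest means of that list, so its sum need not follow each gene. The neural stem cell filament gene Nes stood at 3.76 ± 0.246 FPKM in P56-NSC against 196 ± 13.4 in AST. None of those 19 genes was at 0 in all libraries of a group. Microglia and macrophage markers (12 genes) summed to 327 to 428 FPKM in AST, 3725 to 5173 in A-iSC, 986 to 1080 in P56-NSC and 175 to 218 in P0-NSC. Oligodendrocyte markers (8 genes) summed to 12128 to 13975 FPKM in P56-NSC and at most 86.9 elsewhere, with Mobp at 0 in every AST library. Neuron markers (9 genes) were highest in P0-NSC, at 859 to 1036 FPKM, and red blood cell markers (5 genes) reached 360 to 565 in P56-NSC and 163 to 338 in P0-NSC against at most 0.548 in AST and A-iSC. Fibroblast and mural markers (7 genes) summed to 1881 to 2267 FPKM in AST and at most 135 elsewhere, and the AST sum is mostly Acta2 (1848 ± 231 FPKM). Of the 7, Dcn, Lum and Rgs5 were called higher than AST in both NSC groups and Col1a2 in P0-NSC. All these lists move with the groups, and their part in the replication results was not tested.

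Reads recovered from the FPKM values numbered 17077780 to 24452419 per library, and a single read on 1 kb of transcript corresponds to 0.0343 to 0.0623 FPKM. The smallest count behind any of the 36 genes in a library was 6 reads, for Orc1 in P56-NSC, and such low values carry large counting error. Libraries of AST and A-iSC also differed in how levels followed gene length. AST 2, A-iSC 1 and A-iSC 2 favoured short genes (Spearman -0.518, -0.321 and -0.262 across genes) and AST 1, AST 3 and A-iSC 3 long ones (0.419, 0.451 and 0.354). Mitochondrial genes took 16.5% to 17.6% of reads in P56-NSC and at most 7.03% elsewhere.

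The first comparison asks what changed between the starting astrocytes and the cells after 5 days. Of the 36 genes, 35 fell in A-iSC and none rose, where 30.8% of all tested genes were called lower and 28.1% higher. The median difference was -0.97, against 0 over all tested genes, and 17 of the 35 fell at least 2-fold on the log2 scale. The share of all tested genes that were called and past 2-fold was not counted, here or in the comparisons below. Only Rfc2, a clamp loader subunit, was not called. All 36 genes passed the filter on low values, but Orc1 and Fen1 passed it through AST alone and so had to differ. Mcm10 passed the filter through AST and P0-NSC 1 (1.08 FPKM), so it too would have failed without AST. Without Orc1 and Fen1, but with Mcm10 kept, 33 of 34 fell. Fits within the short-gene libraries (34 of the 36 lower) and within the long-gene libraries (35 lower) leave 1 AST library and 1 A-iSC library, respectively, in an arm. That lone library is assumed to vary like the other libraries in the fit, those of the NSC groups included, so these counts are a description and no separate support.

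**Figure D2:**
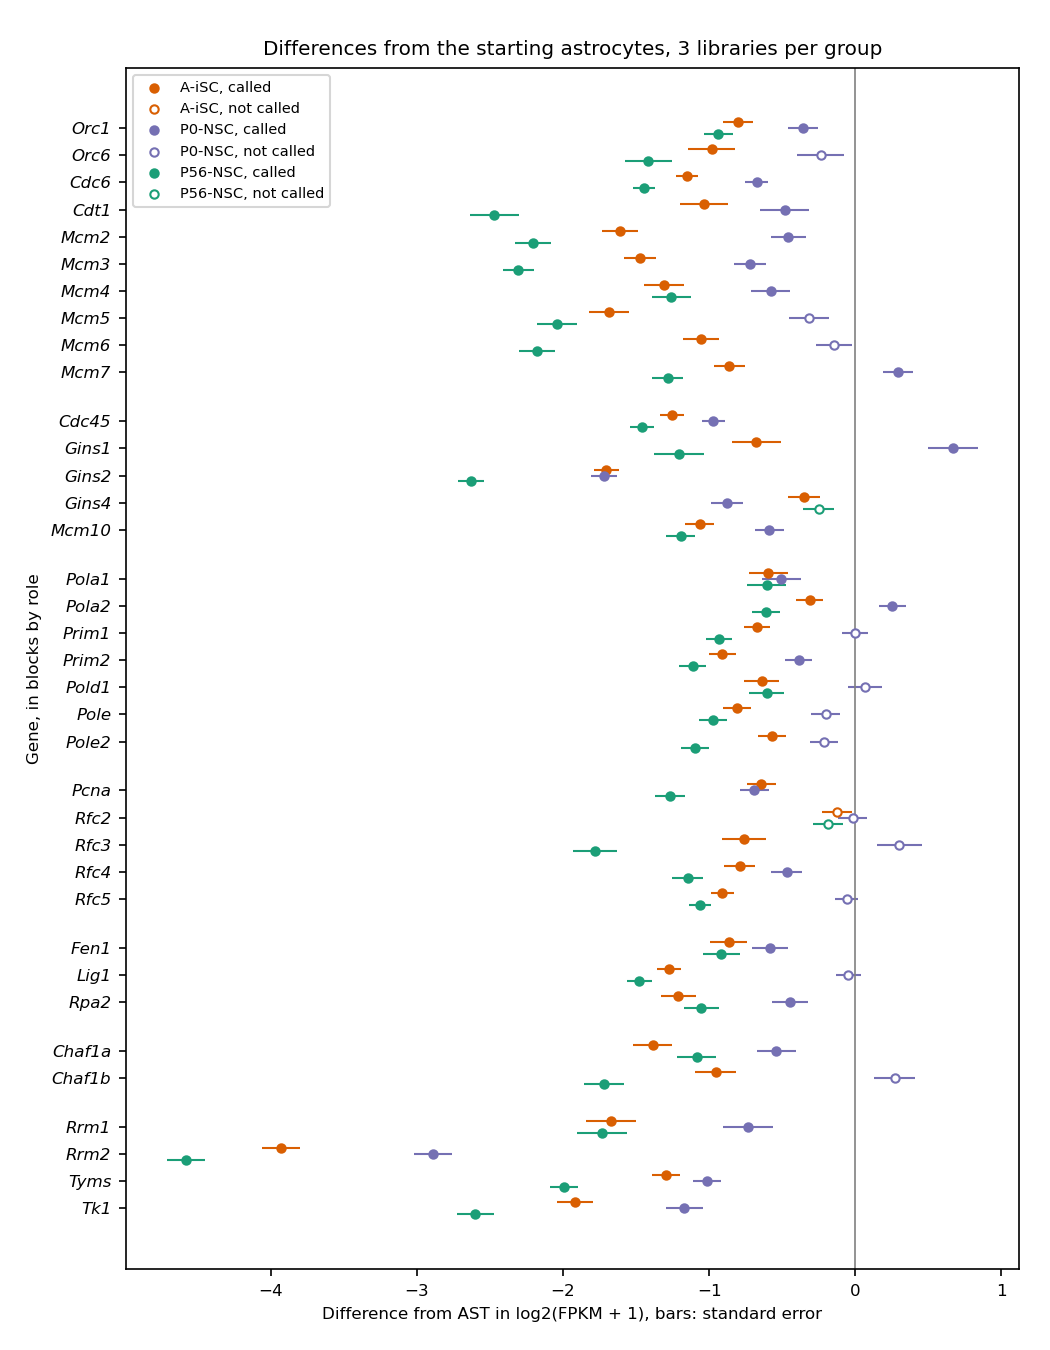
Difference from AST in log2(FPKM + 1) (horizontal axis) with its standard error, for each of the 36 genes (rows, in blocks by role) in A-iSC, P0-NSC and P56-NSC, 3 libraries per group. Filled points passed the test and open points did not. Rrm2 lies farthest to the left in each group, and Rfc2 is open in each.

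Licensing genes fell together in A-iSC, 10 of 10 with a median of -1.10. Mcm5, a subunit of the MCM2-7 ring, stood at 15.1, 11.2 and 15.0 FPKM in AST and at 3.18, 3.55 and 3.99 in A-iSC. All AST libraries lay above all A-iSC libraries, and the difference of -1.68 ± 0.14 (SE) was the largest of this block (adjusted p = 6.4e-07). Cdc6, whose ATPase helps load the ring, had 2.61, 2.37 and 2.55 FPKM in AST and 0.655, 0.603 and 0.485 in A-iSC. The Cdc6 groups did not overlap either (-1.15 ± 0.08). Orc1, the largest subunit of the origin recognition complex, moved least, from 1.30, 1.20 and 1.58 FPKM to 0.471, 0.290 and 0.300 (-0.80 ± 0.10). Its low level makes the log2 difference smaller than the ratio of the means.

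The 6 subunits of the MCM2-7 ring, which assemble in equal numbers, did not have equal FPKM values, which depend on the gene lengths used. Their summed level was 106 ± 5.49 FPKM in AST and 41.1 ± 2.85 in A-iSC. The highest of the 6 exceeded the lowest 1.93 ± 0.154 times in AST and 3.82 ± 0.769 times in A-iSC. Mcm7 had the highest mean of the 6 in A-iSC, at 12.3, 11.3 and 10.4 FPKM, although Mcm6 was above it in A-iSC 3, and it fell least (-0.86 ± 0.10). Mcm2 was the lowest there, at 2.76, 2.81 and 3.71 FPKM, after 12.3, 10.5 and 11.6 in AST (-1.61 ± 0.12). Exons of Mcm7 overlap those of Ap4m1 on the other strand over 7.25% of their length, and the library kit does not mark strand.

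**Figure D3:**
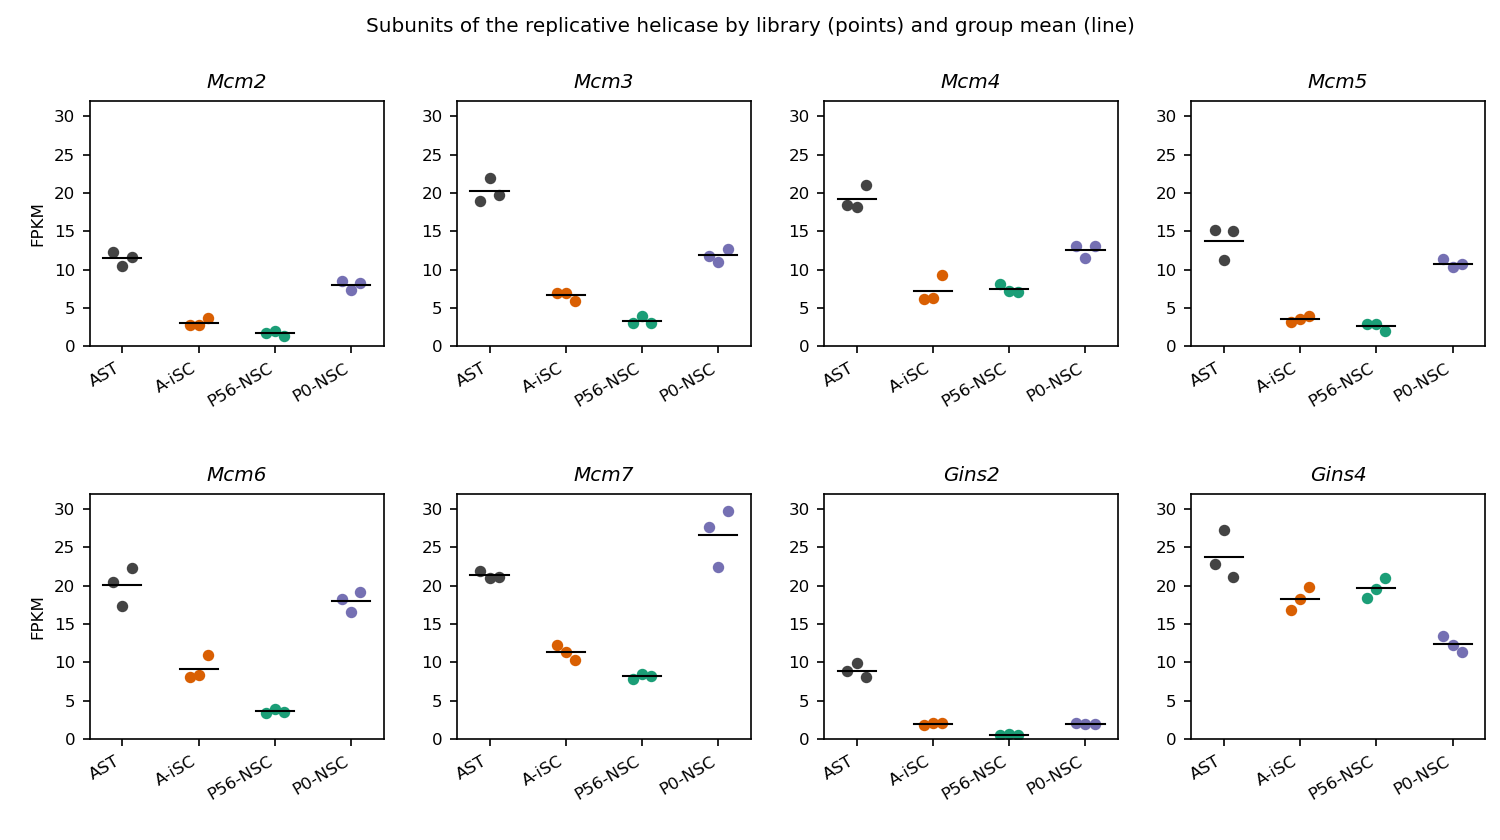
FPKM (vertical axis) of the 6 MCM2-7 subunits and of 2 GINS subunits in each library (points, 3 per group) with the group mean (line). Mcm2 to Mcm6 are highest in AST, Mcm7 is highest in P0-NSC, and Gins4 keeps 11.4 FPKM or more in every library while Gins2 falls below 1 in P56-NSC.

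All 5 helicase activation genes fell, with a median of -1.07. Gins2, a subunit of the GINS complex, had 8.85, 9.87 and 8.06 FPKM in AST and 1.88, 2.10 and 2.15 in A-iSC, with no overlap (-1.70 ± 0.09, adjusted p = 1.6e-08). Its partner Gins4 had 22.8, 27.2 and 21.1 FPKM in AST and 16.9, 18.3 and 19.8 in A-iSC. Every AST library was again the higher, yet the difference was only -0.35 ± 0.11 (adjusted p = 0.016). Without AST 2 the call on Gins4 was lost (-0.25, adjusted p = 0.059), and likewise without A-iSC 1 (-0.29, adjusted p = 0.060). Scaling by total reads (-0.14) and quantile normalization (-0.08) ended it too, and so did a fit of AST and A-iSC alone (adjusted p = 0.054). The ratio of Gins4 to Gins2 was 2.65 ± 0.0958 in AST, 8.97 ± 0.266 in A-iSC, 33.0 ± 2.75 in P56-NSC and 6.16 ± 0.265 in P0-NSC. Gins2 shares 67.3% of its exon bases with Gse1 on the other strand, so part of its reads could belong to Gse1. Cdc45, Gins1 and Mcm10, a factor that helps the helicase start, fell as well, by 1.25, 0.68 and 1.07 on the log2 scale.

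Polymerase genes changed less on the log2(FPKM + 1) scale, which understates the change of low genes such as most of these. All 7 of the priming and polymerase block fell in A-iSC with a median of -0.64, and none fell 2-fold on the log2 scale. Prim2, the large primase subunit, moved most, from 4.71, 4.92 and 4.49 FPKM to 1.99, 1.86 and 2.28 (-0.91 ± 0.09). Pola2, the second subunit of polymerase alpha, moved least, from 2.05, 1.92 and 2.0 to 1.62, 1.37 and 1.25 (-0.31 ± 0.09, adjusted p = 0.013). Both pairs of groups were apart. By the ratio of means Pole fell further than Prim2, from 1.64 ± 0.117 FPKM in AST to 0.508 ± 0.0575 in A-iSC. The call on Pola2 was lost under scaling by total reads (-0.18, adjusted p = 0.14).

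Of the clamp and its loader 4 of 5 fell, with a median of -0.76. Pcna, the sliding clamp, had the highest FPKM of the 36 genes in A-iSC, P56-NSC and P0-NSC and was second to Rrm2 in AST. It went from 81.5, 99.9 and 80.9 FPKM in AST to 58.5, 55.8 and 51.8 in A-iSC, with no overlap (-0.64 ± 0.10). As a share of the summed level of the 36 genes it was 17.0% ± 1.40 in AST and 28.5% ± 1.52 in A-iSC. A processed copy, Pcna-ps2, was listed at up to 6.50 FPKM, and reads could be exchanged between it and Pcna. Rfc5, a loader subunit, moved most of the block (-0.91 ± 0.08). Rfc2 stood at 7.0, 7.57 and 6.99 FPKM in AST and 6.90, 7.39 and 5.39 in A-iSC. Those values overlap, and the difference was -0.12 ± 0.10 (95% interval -0.35 to 0.10, adjusted p = 0.32). Under scaling by total reads its sign turned (0.06, not called), and with the long-gene libraries, where A-iSC is 1 library, its difference was -0.32. Rfc2 shares 15.1% of its exon bases with Lat2 on the other strand, listed at a mean of 1.65 FPKM. Part of the Rfc2 reads could belong to Lat2, which was not tested.

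Lagging strand and chromatin genes also fell. Lig1, the ligase that seals Okazaki fragments, had 11.4, 11.6 and 11.1 FPKM in AST and 4.43, 3.89 and 3.98 in A-iSC (-1.28 ± 0.08). Fen1, the flap nuclease, moved least of the 3 genes of this block on the log2(FPKM + 1) scale (-0.87 ± 0.13). It went from 1.60, 1.16 and 1.93 FPKM to 0.246, 0.417 and 0.539, and by the ratio of means it fell most of the 3. The groups of Lig1 and Fen1 were apart. However, Fen1 shares 78.8% of its exon bases with Gm10143 on the other strand, listed at a mean of 0.110 FPKM, and 5.37% with Tmem258, at 22.7. Chaf1a, the large subunit of chromatin assembly factor 1, went from 4.14, 2.55 and 3.90 FPKM to 0.639, 0.632 and 0.872 (-1.39 ± 0.13). Its partner Chaf1b went from 3.48, 4.56 and 3.29 to 1.77, 1.60 and 1.04 (-0.96 ± 0.14). Chaf1a shares 52.5% of its exon bases with Ubxn6 on the other strand. Short overlaps with far higher neighbours on the other strand were also found for Rfc4 (12.7% with Eif4a2, mean 74.3 FPKM), Rfc5 (10.7% with Wsb2, mean 27.4 FPKM) and Mcm7 (1.45% with Cops6, mean 52.1 FPKM). Cdc45 likewise shared 5.96% with the higher Ufd1 (mean 17.1 FPKM) and Orc6 6.93% with the higher Vps35 (mean 19.5 FPKM). For the 22 genes with no shared exon bases, all 22 fell.

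Nucleotide supply genes fell most, 4 of 4 with a median of -1.79. Rrm2, the small subunit of ribonucleotide reductase that is made for S phase, had 128, 125 and 125 FPKM in AST and 6.93, 7.33 and 7.73 in A-iSC. The AST libraries were 17.2 times higher on average, and no other of the 36 genes moved as far (-3.93 ± 0.13, adjusted p = 8.5e-10). Rrm1, the large subunit of the same enzyme, had 15.7, 13.5 and 15.5 FPKM in AST and 3.37, 3.05 and 5.99 in A-iSC (-1.67 ± 0.17). The ratio of Rrm2 to Rrm1 was 8.47 ± 0.665 in AST, 1.92 ± 0.569 in A-iSC, 1.14 ± 0.182 in P56-NSC and 1.88 ± 0.115 in P0-NSC. Rrm2 alone made up 24.5% ± 1.12 of the summed level of the 36 genes in AST and 3.78% ± 0.235 in A-iSC. Tk1, the thymidine kinase of dividing cells, went from 7.13, 8.93 and 7.15 FPKM to 1.37, 1.53 and 1.03 (-1.92 ± 0.13). Tyms, which makes thymidylate, moved least of the 4, from 5.6, 6.57 and 5.41 to 1.95, 1.92 and 1.53 (-1.29 ± 0.10). In each of these 4 genes every AST library lay above every A-iSC library.

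**Figure D4:**
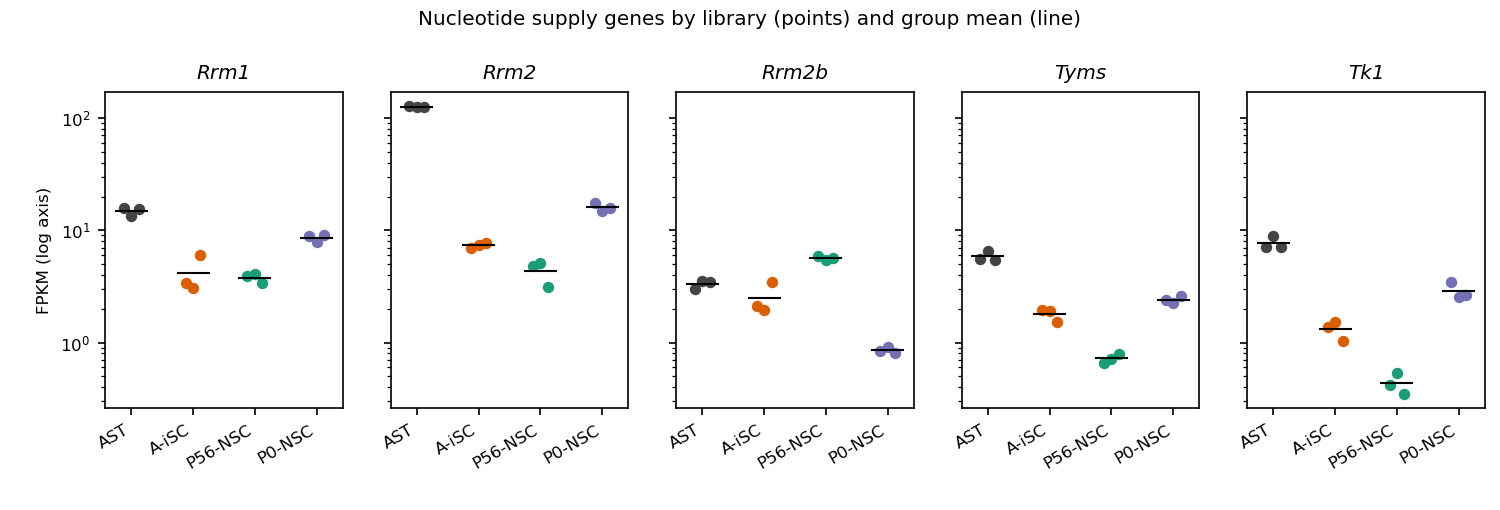
FPKM (vertical log axis) of ribonucleotide reductase subunits Rrm1, Rrm2 and Rrm2b and of Tyms and Tk1 in each library (points, 3 per group) with the group mean (line). Rrm2 reaches 125 to 128 in AST, while Rrm2b, which is not among the 36 genes, is highest in P56-NSC.

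The second small subunit, Rrm2b, serves DNA repair and mitochondrial DNA in cells that do not divide and is not among the 36 genes. It had 3.02, 3.52 and 3.45 FPKM in AST, and 2.12, 1.93 and 3.45 in A-iSC. Levels of Rrm2b were 5.93, 5.42 and 5.64 FPKM in P56-NSC, the highest group, while the P0-NSC libraries held 0.837, 0.921 and 0.803. P56-NSC was thus the only group in which Rrm2b was above Rrm2, which stood at 4.84, 5.13 and 3.15 FPKM there. Against AST it was higher in P56-NSC (0.62 ± 0.14, adjusted p = 0.0013) and lower in P0-NSC (-1.22 ± 0.14, adjusted p = 5.3e-06), while its difference in A-iSC was -0.33 ± 0.14 (adjusted p = 0.055).

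P56-NSC were compared with AST as a positive control group against the negative control. This comparison shares the AST libraries with the first one. Of the 36 genes 34 fell and none rose, where 37% of all tested genes were called lower and 37.1% higher. The median difference was -1.26, against -0.004 over all tested genes, and 27 of the 34 fell at least 2-fold on the log2 scale. Without Orc1 and Fen1, but with Mcm10 kept, 32 of 34 fell.

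Rrm2 was again the gene that moved most, with P56-NSC at 4.38 ± 1.07 FPKM and AST at 126 ± 1.47, a ratio of 28.8 (-4.58 ± 0.13, adjusted p = 3.1e-11). Gins2 followed, at 0.548, 0.654 and 0.593 FPKM (-2.63 ± 0.09). Tk1 stood at 0.421, 0.539 and 0.350 FPKM (-2.60 ± 0.13), and Rrm1 moved least of the nucleotide genes (-1.73 ± 0.17). Among licensing genes Cdt1, which brings MCM2-7 to the origin, had the largest difference, with 1.14, 1.27 and 0.870 FPKM against 10.1, 10.9 and 10.6 in AST (-2.47 ± 0.17). Orc1 had the smallest on the log2 scale (-0.94 ± 0.10), where its low level makes the difference smaller than the ratio of the means. None of these groups overlapped.

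Other blocks had a gene of their own in front on the log2(FPKM + 1) scale. Rfc3 led the clamp and loader genes, at 1.44, 1.88 and 1.5 FPKM (-1.78 ± 0.15), and Prim2 the polymerases (-1.11 ± 0.09), of which Pola1, the catalytic subunit of polymerase alpha, and Pold1, that of polymerase delta, moved least (both -0.61). By the ratio of means Pole2 fell further than Prim2, from 1.68 ± 0.158 FPKM in AST to 0.255 ± 0.0956 in P56-NSC. Lig1 moved by -1.48 ± 0.08 and Fen1 by -0.92 ± 0.13. Chaf1b, at 0.345, 0.546 and 0.441 FPKM, moved by -1.72 ± 0.14 and Chaf1a by -1.08 ± 0.13. The 2 genes not called were Gins4, at 18.4, 19.6 and 21 FPKM (-0.25 ± 0.11, 95% interval -0.49 to -0.01, adjusted p = 0.054), and Rfc2, at 6.04, 5.96 and 6.62 (-0.18 ± 0.10, 95% interval -0.41 to 0.04). In both genes the P56-NSC libraries still lay below every AST library.

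P0-NSC stood nearest to AST. Of the 36 genes 21 fell, 3 rose and 12 were not called, where 38.3% of all tested genes were called lower and 35.9% higher. The median difference was -0.45, against -0.04 over all tested genes, and 4 of the 21 fell at least 2-fold on the log2 scale. Without Orc1 and Fen1, which passed the filter through AST alone, but with Mcm10 kept, 19 of 34 fell and 3 rose. Scaling by total reads left 14 lower and 9 higher, and ended the lower calls of Orc1, Cdt1, Mcm2, Mcm4, Prim2, Rfc4 and Rpa2. Among all 11575 genes called under that scaling 58.7% were higher. The 4 genes past 2-fold were Rrm2, Gins2, Tk1 and Tyms, named here after their values were seen. The AST libraries are the same as in the comparisons above.

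Nucleotide supply genes were the block in which all members fell. Rrm2 stood at 17.6, 15.0 and 15.9 FPKM in P0-NSC, below all AST libraries (-2.89 ± 0.13, adjusted p = 2.0e-09), and Rrm1 moved least, at 8.86, 7.85 and 9.02 (-0.73 ± 0.17). Gins2, at 2.09, 2.01 and 1.92 FPKM, led the helicase activation genes (-1.72 ± 0.09) and Mcm10 moved least of those that fell (-0.59 ± 0.10). Mcm3 led the licensing genes, with 11.8, 11 and 12.7 FPKM (-0.72 ± 0.11), Pola1 the polymerases (-0.51 ± 0.13) and Pcna, at 53.9, 51.3 and 55.3, the clamp block (-0.69 ± 0.10). Quantile normalization ended the call on Pcna (adjusted p = 0.25) and those on Cdt1, Rpa2 and Pola2. The same setting newly called Pole and Pole2 lower and Rfc3 higher. Fen1 moved by -0.58 ± 0.13 and Chaf1a by -0.54 ± 0.13.

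Mcm7, Gins1 and Pola2 were higher in P0-NSC than in AST. Gins1, another GINS subunit, had 9.72, 9.52 and 11.2 FPKM against 5.04, 8.56 and 4.94, with no overlap (0.67 ± 0.17, adjusted p = 0.0035). Mcm7 had 27.6, 22.4 and 29.7 FPKM against 22, 21 and 21.2 (0.29 ± 0.10, adjusted p = 0.023). Pola2 had 2.46, 2.95 and 2.31 FPKM against 2.05, 1.92 and 2.0 (0.25 ± 0.09, adjusted p = 0.029). Groups were apart for all 3, but 2 of the calls depended on single libraries. The call on Mcm7 was lost without AST 2, AST 3, P0-NSC 1 or P0-NSC 3 (adjusted p = 0.052, 0.057, 0.076 and 0.10). The call on Pola2 was lost without AST 1, AST 2, AST 3 or P0-NSC 2 (adjusted p = 0.051, 0.071, 0.062 and 0.12). The count of 3 became 1 without AST 3 and 5 without A-iSC 3, a library that enters only through the shared estimate of spread.

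The 12 genes not called came from 5 of the 7 blocks. They were Orc6 (-0.24), Mcm5 (-0.32), Mcm6 (-0.14), Prim1 (-0.003), Pold1 (0.07), Pole (-0.20), Pole2 (-0.21), Rfc2 (-0.02), Rfc3 (0.30), Rfc5 (-0.06), Lig1 (-0.05) and Chaf1b (0.27), given as differences in log2(FPKM + 1). Lig1 stood at 11.7, 10.2 and 11 FPKM in P0-NSC and 11.4, 11.6 and 11.1 in AST, and its difference had a 95% interval of -0.23 to 0.14. Mcm6 stood at 18.2, 16.6 and 19.2 FPKM against 20.5, 17.3 and 22.3, and these values overlap. The call on Cdt1 (-0.48) was lost without AST 2 (adjusted p = 0.051) or P0-NSC 2 (adjusted p = 0.093).

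A-iSC were then set between the positive controls, to ask which of them they resemble in these genes. Against P56-NSC 21 of the 36 genes were higher in A-iSC, none was lower and 15 were not called, where 31.5% of all tested genes were called higher and 31.3% lower. The median difference was 0.30, against 0.03 over all tested genes, and 3 of the 21 were at least 2-fold higher on the log2 scale. Cdt1 led, at 5.58, 5.30 and 3.33 FPKM in A-iSC and 1.14, 1.27 and 0.870 in P56-NSC (1.44 ± 0.17, adjusted p = 1.1e-05). Mcm6 followed with 8.16, 8.35 and 11 against 3.38, 3.90 and 3.59 FPKM (1.13 ± 0.12), and Rfc3 with 5.26, 4.47 and 3.25 against 1.44, 1.88 and 1.5 (1.02 ± 0.15). No library of A-iSC overlapped P56-NSC in these 3 genes.

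Differences within the blocks were smaller elsewhere. Gins2 led the helicase activation genes (0.93 ± 0.09), Pole2, the second subunit of polymerase epsilon, the polymerases (0.53 ± 0.09), Chaf1b chromatin assembly (0.76 ± 0.14) and Tyms nucleotide supply (0.70 ± 0.10). The 15 genes not called were Orc1 (0.13), Mcm4 (-0.05), Gins4 (-0.10), Mcm10 (0.13), Pola1 (0.01), Prim2 (0.20), Pold1 (-0.03), Pole (0.17), Rfc2 (0.06), Rfc5 (0.15), Fen1 (0.05), Lig1 (0.20), Rpa2 (-0.16), Chaf1a (-0.30) and Rrm1 (0.06), as differences in log2(FPKM + 1). For Rrm1 the 95% interval ran from -0.32 to 0.43, with A-iSC at 3.37, 3.05 and 5.99 FPKM around the P56-NSC values of 3.92, 4.08 and 3.39. Of the 21 calls, 6 were lost when 1 library was left out. Cdc45 lost its call without any of 8 libraries (adjusted p 0.052 to 0.12). Orc6 lost it without A-iSC 1, A-iSC 2 or P56-NSC 2 (0.065, 0.13 and 0.13), and Mcm5 without A-iSC 2, A-iSC 3 or P56-NSC 3 (0.073, 0.094 and 0.16). Gins1 and Pola2 lost it without A-iSC 1 (0.064 and 0.068) or P56-NSC 3 (0.056 and 0.063), and Prim1 without A-iSC 2, P56-NSC 1 or P56-NSC 2 (0.067, 0.062 and 0.10).

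Scaling decides part of this contrast. When libraries were scaled by total reads instead of by the authors' factors, the median of all tested genes moved by 0.40 toward A-iSC, and 32 of the 36 genes were called higher. The same scaling moved that median by 0.12 in A-iSC against AST, -0.24 in P56-NSC against AST, 0.20 in P0-NSC against AST, -0.05 in A-iSC against P0-NSC and -0.45 in P56-NSC against P0-NSC. Among all called genes the share called higher went from 50.1% to 73.4% in A-iSC against P56-NSC, from 47.7% to 60.9% in A-iSC against AST, from 50.1% to 38.7% in P56-NSC against AST, from 48.4% to 58.7% in P0-NSC against AST and from 51.0% to 27.3% in P56-NSC against P0-NSC. In A-iSC against P56-NSC the number of all genes called also went from 9897 to 11804. More of all genes were thus called higher there, and the count of 32 is to be read against that rise. In the same contrast 27 of the 36 genes were called under this scaling and had a difference above the moved median. The calls are tests against 0, and no gene was tested against that median.

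Against P0-NSC the direction was the reverse. Of the 36 genes 30 were lower in A-iSC, 1 was higher and 5 were not called, where 34.7% of all tested genes were called lower and 32.6% higher. The median difference was -0.69, against -0.01 over all tested genes, and 8 of the 30 were at least 2-fold lower on the log2 scale. All 10 licensing genes were lower, led by Mcm5 with 3.18, 3.55 and 3.99 FPKM in A-iSC and 11.3, 10.3 and 10.7 in P0-NSC (-1.37 ± 0.14). Orc1 moved least of them (-0.44 ± 0.10). Gins1 was lower by a like amount (-1.35 ± 0.17), as were Lig1 (-1.23 ± 0.08), Chaf1b (-1.22 ± 0.14), Rfc3 (-1.06 ± 0.15) and Rrm2 (-1.04 ± 0.13). Among the polymerases Pold1 moved most (-0.71 ± 0.12). No library of either group overlapped the other in these genes.

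Gins4 alone was higher in A-iSC, at 16.9, 18.3 and 19.8 FPKM against 13.5, 12.3 and 11.4 in P0-NSC (0.53 ± 0.11, adjusted p = 0.00098). The 5 genes not called were Gins2 (0.02, 95% interval -0.18 to 0.21), Pcna (0.05, -0.17 to 0.27), Pola1 (-0.09, -0.38 to 0.20), Rfc2 (-0.11, -0.33 to 0.12) and Fen1 (-0.28, -0.56 to -0.01), and values of the 2 groups overlapped in all 5. Pcna stood at 58.5, 55.8 and 51.8 FPKM in A-iSC and 53.9, 51.3 and 55.3 in P0-NSC. The call on Rfc4 (-0.32) was lost without P0-NSC 1 (adjusted p = 0.069), and that on Tyms (-0.28) without A-iSC 3 (0.063) or P0-NSC 3 (0.076).

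The positive controls themselves were far apart. In P56-NSC against P0-NSC 33 of the 36 genes were lower and 1 was higher, where 33.9% of all tested genes were called lower and 35.3% higher. The median difference was -0.90, against 0.002 over all tested genes, and 14 of the 33 were at least 2-fold lower on the log2 scale. Rfc3 had the largest difference, with 1.44, 1.88 and 1.5 FPKM against 9.62 to 10.4 (-2.08 ± 0.15), followed by Mcm6 (-2.04 ± 0.12), Cdt1 (-1.99 ± 0.17), Chaf1b (-1.99 ± 0.14) and Gins1 (-1.88 ± 0.17). Rrm2 led nucleotide supply (-1.69 ± 0.13), Prim1, the catalytic primase subunit, the polymerases (-0.93 ± 0.09) and Lig1 its block (-1.43 ± 0.08). Gins4 was again the exception, at 18.4, 19.6 and 21 FPKM against 13.5, 12.3 and 11.4 (0.63 ± 0.11), although this call was lost when libraries were scaled by total reads. Pola1 (-0.10 ± 0.13) and Rfc2 (-0.17 ± 0.10) were not called. The call on Fen1 (-0.33) was lost without P56-NSC 1, P0-NSC 1 or P0-NSC 3 (adjusted p = 0.11, 0.086 and 0.10).

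Other genes of the pathway were counted from lists chosen by function. Their counts stand beside the shares of all tested genes called lower, which were 30.8% in A-iSC, 37% in P56-NSC and 38.3% in P0-NSC against AST, and called higher, which were 28.1%, 37.1% and 35.9%. Of 13 tested partners of the same complexes, 9 fell and 2 rose in A-iSC against AST, with a median of -0.42. Rpa1, the large subunit of the single-strand binding protein RPA, led with 48.2, 32.8 and 49.0 FPKM in AST and 8.12, 7.04 and 16.5 in A-iSC (-2.01 ± 0.24). Its partner Rpa2, among the 36 genes, moved by -1.21 ± 0.12. The polymerase epsilon subunits Pole4 (-1.31 ± 0.11) and Pole3 (-0.78 ± 0.10) came next. Orc3, of the origin recognition complex (0.42 ± 0.12), and Pold3, of polymerase delta (0.58 ± 0.08), rose. Pold3 had 4.21, 4.39 and 3.87 FPKM in AST and 7.28, 6.37 and 6.48 in A-iSC, with no overlap, while the catalytic subunit Pold1 went the other way (-0.64 ± 0.12). In P56-NSC 9 of the 13 fell and none rose, and in P0-NSC 9 fell and 2 rose, again Orc3 (0.73 ± 0.12) and Pold3 (0.42 ± 0.08).

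**Figure D5:**
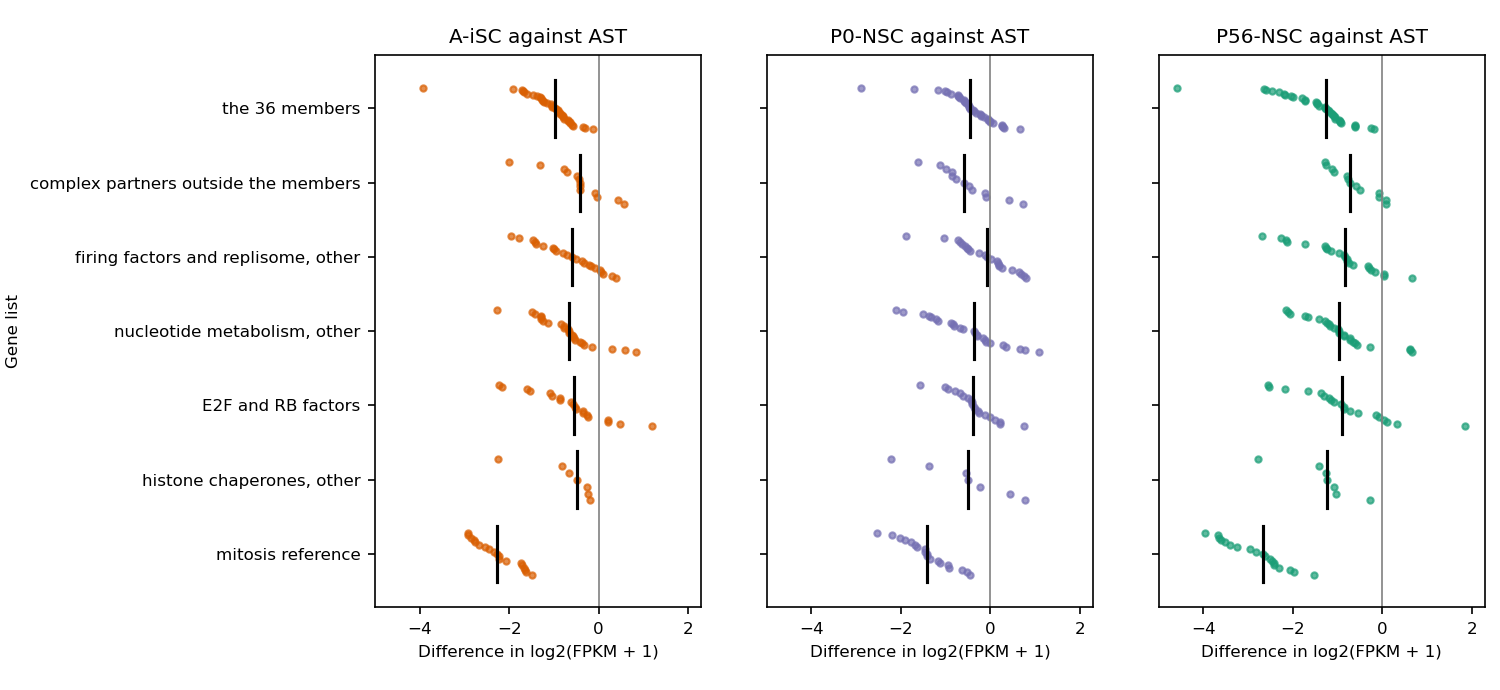
Differences from AST in log2(FPKM + 1) (horizontal axis) of each tested gene (points) in the 36 genes and in 6 other lists (rows), with the list's median (black line), for A-iSC, P0-NSC and P56-NSC. All 19 mitosis genes lie left of 0 in each panel, while the 2 positive points farthest right in A-iSC are Rbl2 and Pfas.

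Of 23 tested firing factors and other replisome genes, 15 fell and 2 rose in A-iSC, with a median of -0.59. Top2a, topoisomerase II alpha, went from 23.3, 20.2 and 23.4 FPKM to 4.70, 4.21 and 6.23 (-1.96 ± 0.15). Uhrf1, which guides maintenance methylation (-1.78 ± 0.17), and Dbf4, the activator of the origin-firing kinase CDC7 (-1.47 ± 0.11), followed. Mcm9 (0.39 ± 0.13) and the nuclease Dna2 (0.30 ± 0.10) rose. In P56-NSC 18 of the 23 fell, led by Top2a (-2.69 ± 0.15), the licensing inhibitor Gmnn (-2.27 ± 0.17) and Uhrf1 (-2.14 ± 0.17), and Mcm9 rose (0.66 ± 0.13). In P0-NSC 9 of the 23 fell, a share close to the 38.3% of all tested genes, led by Gmnn (-1.88 ± 0.17), Clspn (-1.04 ± 0.10) and Top2a (-0.73 ± 0.15). There 6 rose, namely Atad5 (0.80 ± 0.12), Mcm9 (0.75 ± 0.13), Cdc7 (0.68 ± 0.10), Recql4 (0.63 ± 0.09), Dna2 (0.49 ± 0.10) and Timeless (0.20 ± 0.08).

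Nucleotide metabolism beyond the 4 supply genes gave 19 of 25 genes lower and 3 higher in A-iSC, with a median of -0.66. Ctps, a CTP synthase, went from 47.2, 40.6 and 46.9 FPKM to 9.14, 7.94 and 8.45 (-2.27 ± 0.09), while its paralog Ctps2 rose (0.30 ± 0.09). Mthfd2, of mitochondrial folate metabolism (-1.48 ± 0.12), and Dut, which removes dUTP (-1.43 ± 0.14), were the next. Tk2, the mitochondrial thymidine kinase, rose from 6.26, 8.02 and 6.33 FPKM to 12.5, 10.1 and 9.66 (0.58 ± 0.12), opposite to the cytosolic Tk1. Pfas, of purine synthesis, rose too (0.85 ± 0.13). In P56-NSC 21 of the 25 fell, led by Ctps (-2.15 ± 0.09), Umps (-2.11 ± 0.08) and Samhd1, which degrades deoxynucleotides (-2.05 ± 0.10), and Pfas, Rrm2b and Tk2 rose (0.67, 0.62 and 0.62). In P0-NSC 15 fell, led by Samhd1 (-2.11 ± 0.10), Mthfd2 (-1.95 ± 0.12) and Umps (-1.5 ± 0.08). The 5 that rose there were Impdh1 (1.09 ± 0.10), Pfas (0.77 ± 0.13), Tk2 (0.66 ± 0.12), Shmt1 (0.35 ± 0.09) and Ctps2 (0.29 ± 0.09).

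E2F and RB factors gave 15 of 20 genes lower and 2 higher in A-iSC, with a median of -0.55. The cyclins Ccne1 (-2.23 ± 0.12) and Ccna2 (-2.17 ± 0.15) and the repressor E2f8 (-1.59 ± 0.12) fell most. The genes that rose were pocket proteins. Rbl2, which encodes p130, had 2.83, 2.53 and 2.84 FPKM in AST and 6.35, 6.32 and 10.8 in A-iSC (1.20 ± 0.15, adjusted p = 3.6e-05), and Rb1 had 10.3, 11 and 11.7 against 15.3, 14.4 and 17.3 (0.47 ± 0.09). Another pocket protein gene, Rbl1, which encodes p107, fell (-0.54 ± 0.10). In P56-NSC 14 of the 20 fell, led by Ccne1 (-2.54 ± 0.12), Ccna2 (-2.53 ± 0.15) and E2f1 (-2.16 ± 0.10). Rbl2 reached 12, 12.9 and 12.7 FPKM there (1.86 ± 0.15) and Tfdp2, an E2F partner, rose as well (0.34 ± 0.12). In P0-NSC 14 fell, led by E2f6 (-1.57 ± 0.14), Ccne1 (-1.02 ± 0.12) and E2f3 (-0.96 ± 0.09), and E2f2 alone rose (0.76 ± 0.10).

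Of 7 other histone chaperones 4 fell in A-iSC with a median of -0.49, 6 in P56-NSC and 4 in P0-NSC, where Nasp rose (0.78 ± 0.12). Asf1b, which hands histones to chromatin assembly factor 1, led in each, with 10.2, 10.9 and 10.3 FPKM in AST and 1.68, 1.21 and 1.34 in A-iSC (-2.25 ± 0.10). For reference, all 19 tested mitosis genes were called lower in each of the 3 groups than in AST, with medians of -2.27 in A-iSC, -2.67 in P56-NSC and -1.41 in P0-NSC. Those medians are farther from 0 than the medians of the 36 genes. In A-iSC Cdc20 (-2.93 ± 0.15), Plk1 (-2.92 ± 0.13) and Ccnb2 (-2.85 ± 0.15) moved most. Between A-iSC and P56-NSC 17 of the 19 were higher in A-iSC, and between A-iSC and P0-NSC all 19 were lower.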

How the data were processed

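RNA of 12 libraries was measured with an unstranded kit from 3 µg of RNA per sample, per the labels' protocols. The authors deposited FPKM values per gene, and Bowtie 0.12.2 and 2 mouse builds (mm9, mm8) are listed in the submitters' processing notes, although the coordinates in the table are those of GRCm38. Which tool counted the reads is not stated there. Multiplied by gene length, 100% of values came within 0.01 of a whole number of reads, so the depth is known, and the scaling between libraries (0.744 to 1.22 times the read totals) is the authors' own. The 441 entries without a gene name (0.0957% to 0.156% of reads) were left out.

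The moderated test of limma (version 3.58.1, R 4.3.3) was run with a trended spread on log2(FPKM + 1) over all 12 libraries. Genes entered it if 3 or more libraries reached 1 FPKM. The test was checked on simulated data. Python 3.11.15 made the other tables. Groups come from the sample titles.

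The 36 genes, the lists and the promoter motifs were chosen with earlier results of these data known. Named in full are, in each role block, the called gene of largest and the gene of smallest absolute difference, every gene not called and every gene called against most. Of other lists, up to 3 called genes of largest difference and those called against most are named. Alternatives were pseudocounts of 0.1 and 0.5, no filter and a filter of 5 FPKM, scaling by total reads, quantile normalization, voom on recovered reads, fits of the compared groups alone, a gene length correction, a replicate block and leaving out libraries. The fits within short-gene and within long-gene libraries were added after seeing the data. The sequence check of ribonucleotide reductase proteins was not run. Annotation was GENCODE M21.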

Additional observations from a re-analysis of the deposited data

How the results depend on the processing

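The 35 lower genes of A-iSC against AST stayed 33 to 35 under all alternatives but 1, and the 34 of P56-NSC against AST stayed at 34 to 36. The exception was the filter of 5 FPKM, which tests fewer of the 36 genes and gave 22 and 21 lower, 19 for A-iSC against P0-NSC and 21 for P56-NSC against P0-NSC. Higher genes in P0-NSC against AST numbered 9 when scaled by total reads, 5 by voom, 5 with AST 2 and A-iSC 3 left out together and 1 to 5 with 1 library left out. Lower genes in A-iSC against P56-NSC, 0 in the reported fit, numbered 1 (Chaf1a) with pseudocounts of 0.1 and 0.5, with only these groups fitted, by voom and with the length trend removed, 2 with AST 2 and A-iSC 3 left out, and 0 to 1 with 1 library left out. Scaling by total reads gave 32 higher genes there and 0 higher genes in P56-NSC against P0-NSC. It also turned the sign of 7 genes that were not called in the reported fit and called them there, at 0.44 for Mcm4, 0.43 for Gins4, 0.36 for Pold1 and 0.31 for Rpa2 in A-iSC against P56-NSC, and at 0.24 for Prim1, 0.19 for Rfc5 and 0.22 for Lig1 in P0-NSC against AST. Cores of 7 letters, an alternative added after seeing the data, were found in 69.0% of the 29 promoters. Apart from the filter and the scaling, the cause of these moves was not tested.

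With a replicate block the counts were 35 and 34 lower for A-iSC and P56-NSC against AST, 21 lower and 3 higher for P0-NSC against AST, 18 higher for A-iSC against P56-NSC, 31 lower for A-iSC against P0-NSC and 33 lower for P56-NSC against P0-NSC. Same-numbered libraries did not deviate together (correlations -0.395 to 0.442, over 0.1 in 3 of 18 pairs), so the numbers were not taken to pair them. Depth limits the genes under 1 FPKM, such as Orc1 and Fen1 outside AST, and Mcm10 and Pole2 in A-iSC and P56-NSC.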
